A study of Mus musculus with 6 samples.

Results

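The genes described here are 9 RNA sensors and adaptors of the RIG-I pathway: Ddx58, Ifih1, Dhx58, Mavs, Trim25, Tbk1, Ikbke, Tank and Traf3. They were chosen by name, and 8 of the 9 had a probe set in the table of 22180 genes. Traf3, a ubiquitin ligase of the adaptor step, was not analysed here, because no probe set carried its symbol alone in the annotation used. Expression was read on 6 microarrays of mouse leukaemia cells driven by the fusion oncogene MLL-AF9. In 3 samples the leukaemia carried an Evi1 transgene (Evi1 Tg), and in the other 3 it came from wild-type mice (WT). All 6 samples share the MLL-AF9 fusion, the strain C57BL/6J, no treatment, and a sort for green fluorescence that collected 10000 unfractionated leukaemia cells. The sources used here do not give the promoter that drives the transgene, the age of the mice, or whether each array stands for a mouse of its own. The p-values therefore measure only the spread between these samples, which may be technical.

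RIG-I, MDA5 and LGP2 are cytosolic RNA helicases encoded by Ddx58, Ifih1 and Dhx58. They bind double-stranded or 5′-triphosphate RNA of viruses, or misplaced RNA of the cell itself. RIG-I and MDA5 then nucleate filaments of MAVS on mitochondria, which recruit TRAF3, TANK and the kinases TBK1 and IKK-epsilon to phosphorylate IRF3 and IRF7 and so induce type I interferon. Ddx58, Ifih1, Dhx58 and Trim25 are themselves induced by interferon, and in blood cells the pathway links nucleic acid stress to inflammation.

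Median intensities of the 6 arrays lay between 51.6 and 55.4, and Pearson correlations across genes were at least 0.972 for every pair of arrays, where genes are not independent replicates. A background intensity of 78.7 was taken as the 90th percentile of 67 tissue genes assumed to be silent in blood cells. By this choice 7 of the 67 lay above it. Their summed intensity ranged from 3785 in Evi1 Tg 3 to 9004 in WT 1, so not all were dim on every array. Mecom, which encodes Evi1, lay below this background, with 38.6 ± 1.78 in Evi1 Tg and 37.0 ± 2.66 in WT (SD, n = 3 each). The transgene was thus not seen by this probe set. Mecom had 2 probe sets, and their mean differed by 0.0078 on the log2 scale (SE 0.0801), so the groups rest on the labels. Of 18 markers of myeloid leukaemia cells 17 lay above background, and the exception was Ly6c1. The number of arrays limits the precision, and the smallest two-sided p of an exact permutation test over these 6 arrays is 0.1.

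All 8 measured genes lay above background on all 6 arrays. All 8 had a lower mean in Evi1 Tg than in WT, with log2 differences between -1.37 for Ddx58 and -0.055 for Tbk1. Their median difference was -0.46, beside 0.012 over all genes tested, of which 10303 of 22180 had a difference below 0. The groups did not overlap for Ddx58, Ifih1 and Trim25, that is 3 of 8, where 7.47% of all genes had every Evi1 Tg array below every WT array and 7.08% the opposite. With limma and Benjamini-Hochberg adjustment over all genes, 0 of the 8 passed an adjusted p of 0.05, where 0.104% of all genes were called lower and 0.00902% higher. At an unadjusted p under 0.05, 3 of the 8 were lower and 0 higher, beside 5.8% and 4.5% of all genes. A test without moderation across genes called 0 of 22180 genes, the 8 included.

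**Figure D1:**
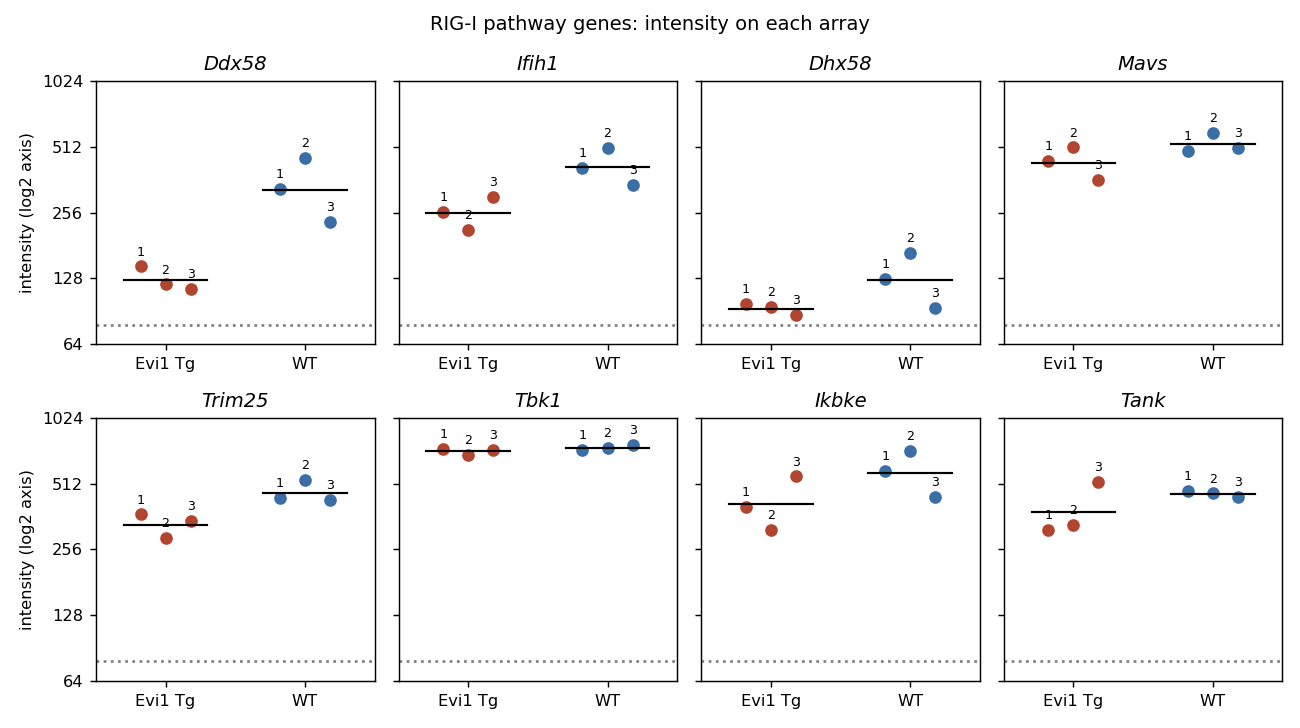
Intensity (log2 axis) of each measured gene on the 3 Evi1 Tg and 3 WT arrays. Points carry the replicate number, black lines are geometric means and the dotted line is the background of 78.7; Ddx58, Ifih1 and Trim25 have every Evi1 Tg point below every WT point.

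Of the 8 genes, those of the sensors RIG-I and MDA5 had the largest differences. Ddx58, which encodes RIG-I, had intensities of 145, 120.2 and 115 in Evi1 Tg arrays 1, 2 and 3, against 329, 457 and 232 in WT arrays 1, 2 and 3. All 3 Evi1 Tg arrays lay close together and below every WT array, while the WT arrays were spread over a wider range, with WT 2 highest and WT 3 lowest. The means were 127 ± 16.2 in Evi1 Tg and 339 ± 113 in WT (SD, n = 3 each). The log2 difference was -1.37 (SE 0.238, 95% confidence interval -1.93 to -0.81), which makes the signal 2.59-fold higher in WT. Its limma adjusted p was 0.127, with an unadjusted p of 6.62e-04 at rank 115 of 22180 genes, and the exact permutation test gave a two-sided p of 0.1, the smallest that this design allows. Ddx58 passed the threshold when WT 3 was left out (-1.62, limma adjusted p = 0.0190). In that setting 173 of 22180 genes (0.78%) were called lower and 383 higher. Ddx58 also passed with array weights (-1.41, limma adjusted p = 0.0397), where 82 of 22180 genes (0.37%) were called lower and 32 higher. WT 3 had the lowest of these weights, 0.455, so both settings reduce the share of the same array.

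Sequence around the start site of both genes with the largest differences is shown, because the factors that interferon activates are known to bind a motif of repeated GAAA. The motif searched was GAAANNGAAA on both strands, alone and with no other motif, in RefSeq promoter windows of 300 bases (250 before to 50 after the start site) of GRCm38.p6. Capitals mark the match. The Ddx58 stretch is chr4:40239796-40240075 on the minus strand, from the first base of its window to base 30 of the transcript. The Ifih1 stretch is chr2:62646206-62646235 on the minus strand, the last 30 bases of its window.
Ddx58: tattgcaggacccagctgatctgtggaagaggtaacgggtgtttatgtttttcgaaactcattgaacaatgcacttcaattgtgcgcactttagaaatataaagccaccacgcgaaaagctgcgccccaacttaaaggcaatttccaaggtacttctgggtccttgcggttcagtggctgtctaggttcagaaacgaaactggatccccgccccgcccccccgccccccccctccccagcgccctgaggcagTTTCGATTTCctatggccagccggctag
Ifih1: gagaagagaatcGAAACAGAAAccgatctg

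In Ddx58 the match begins at base 3 of the transcript and reads GAAATCGAAA on the opposite strand. In Ifih1 it begins at base 33 and reads GAAACAGAAA on the strand of the gene. Of the 8 listed genes with a window, which include Traf3 and leave out Dhx58, these were the 2 with a match. The motif was present in 3.99% of 27025 genes with a window and in 20 of 40 interferon-stimulated genes outside the pathway that had one. A match is a run of letters and was not tested as a binding site.

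Ifih1, which encodes MDA5, the sensor of long double-stranded RNA, had 257, 213 and 302 in Evi1 Tg arrays 1, 2 and 3, against 409, 505 and 344 in WT arrays 1, 2 and 3. Its groups did not overlap, although the highest Evi1 Tg array, the third, lay not far below WT 3. The means were 258 ± 44.4 in Evi1 Tg and 419.5 ± 80.9 in WT (SD, n = 3 each). The log2 difference was -0.70 (SE 0.177, 95% confidence interval -1.12 to -0.28), with a limma adjusted p of 0.240 and an exact permutation p of 0.1. Dhx58 encodes LGP2, which lacks the signalling domains of the other 2 sensors and modulates them. It had 98.0, 94.4 and 87.0 in Evi1 Tg arrays 1, 2 and 3, against 127, 167 and 94.2 in WT arrays 1, 2 and 3. The value of WT 3 fell inside the range of Evi1 Tg. The Evi1 Tg values of Dhx58 and WT 3 lay not far above the background of 78.7. The log2 difference of Dhx58 was -0.44 (SE 0.197, 95% confidence interval -0.90 to 0.029, limma adjusted p = 0.517), and without WT 2 it was -0.23.

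Trim25, a ubiquitin ligase induced by interferon and known to promote RIG-I signalling, was the third gene with separate groups. It had 369.9, 288 and 344 in Evi1 Tg arrays 1, 2 and 3, against 439, 531 and 429 in WT arrays 1, 2 and 3. The means were 334 ± 41.9 in Evi1 Tg and 466 ± 56.4 in WT (SD, n = 3 each), which differ by -0.48 on the log2 scale (SE 0.131, 95% confidence interval -0.79 to -0.17, limma adjusted p = 0.260, exact permutation p = 0.1). Mavs, the mitochondrial adaptor on which the sensors converge, had 440.2, 509 and 360.0 in Evi1 Tg arrays 1, 2 and 3, against 491, 590.5 and 508 in WT arrays 1, 2 and 3. Evi1 Tg 2 lay above WT 1 and WT 3, so the groups overlapped. The log2 difference of Mavs was -0.29 (SE 0.144, 95% confidence interval -0.63 to 0.051, limma adjusted p = 0.564), and it was -0.16 without Evi1 Tg 3.

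The kinases TBK1 and IKK-epsilon are close relatives with overlapping roles. Tbk1 had 738, 692 and 727 in Evi1 Tg arrays 1, 2 and 3, against 728, 745 and 768 in WT arrays 1, 2 and 3. The groups overlapped and the means were 719 ± 23.9 in Evi1 Tg and 747 ± 20.3 in WT (SD, n = 3 each). The log2 difference of Tbk1 was -0.055 (SE 0.0762, limma adjusted p = 0.888), with the 95% confidence interval from -0.23 to 0.12. Ikbke, which encodes IKK-epsilon, the inducible one of the pair, had 402, 315 and 552 in Evi1 Tg arrays 1, 2 and 3, against 582, 725 and 446 in WT arrays 1, 2 and 3. Evi1 Tg 3 lay above WT 3, and the spread within each group was close to the difference between them. The log2 difference of Ikbke was -0.48 (SE 0.244, 95% confidence interval -1.05 to 0.099, limma adjusted p = 0.577), which became -0.28 without Evi1 Tg 2 and -0.31 without WT 2. Whether the difference of Ikbke exceeded that of Tbk1 was not tested.

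Tank, a scaffold that binds TRAF proteins and both kinases, had 315, 330.3 and 519.65 in Evi1 Tg arrays 1, 2 and 3, against 472, 461 and 444 in WT arrays 1, 2 and 3. The WT arrays lay close together, with Evi1 Tg 1 and 2 below them and Evi1 Tg 3 above them. The log2 difference of Tank was -0.28 (SE 0.188, 95% confidence interval -0.72 to 0.17, limma adjusted p = 0.702). Leaving out Evi1 Tg 3 gave -0.51, and leaving out Evi1 Tg 1 gave -0.15. Evi1 Tg 3 was also the highest Evi1 Tg array for Ifih1 and Ikbke, and the lowest for Ddx58, Dhx58 and Mavs.

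**Figure D2:**
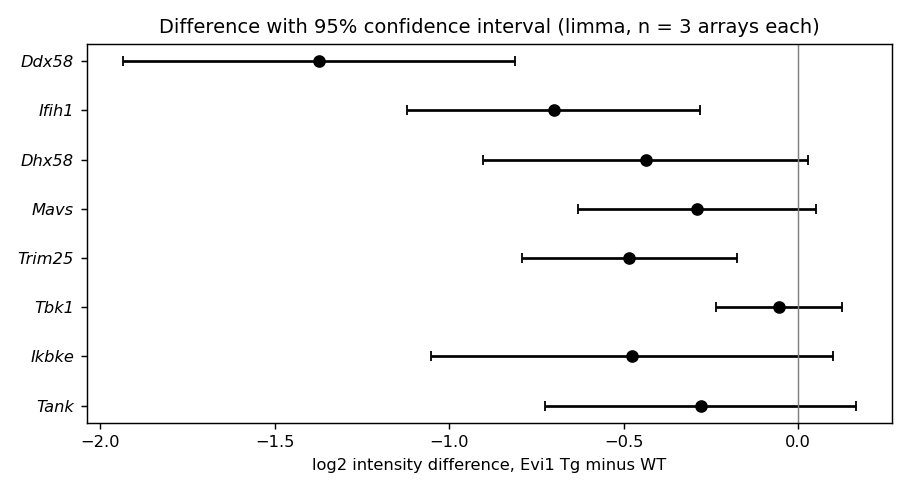
Log2 intensity difference, Evi1 Tg minus WT, of the 8 measured genes with 95% confidence intervals from limma (n = 3 arrays each). The intervals of Ddx58, Ifih1 and Trim25 lie below 0, and those of the other 5 include 0.

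Within WT the same arrays tended to be high or low. WT 2 was the highest WT array for 6 of the 8 genes and WT 3 the lowest for 6 of the 8. The median deviation of the 8 genes from their means over the 6 arrays was -0.21, -0.39 and -0.15 on the log2 scale in Evi1 Tg arrays 1, 2 and 3, against 0.20, 0.51 and 0.085 in WT arrays 1, 2 and 3. Each Evi1 Tg array thus lay below each WT array, WT 3 included. For 44 measured interferon-stimulated genes outside the pathway the median deviation was -0.13, -0.15 and -0.21 in Evi1 Tg arrays 1, 2 and 3, against 0.11, 0.43 and -0.063 in WT arrays 1, 2 and 3. WT 2 was the highest array in both sets. Without WT 2 the median difference was -0.29 for the 8 genes and -0.16 for the interferon-stimulated genes, and without WT 3 it was -0.59 and -0.39.

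**Figure D3:**
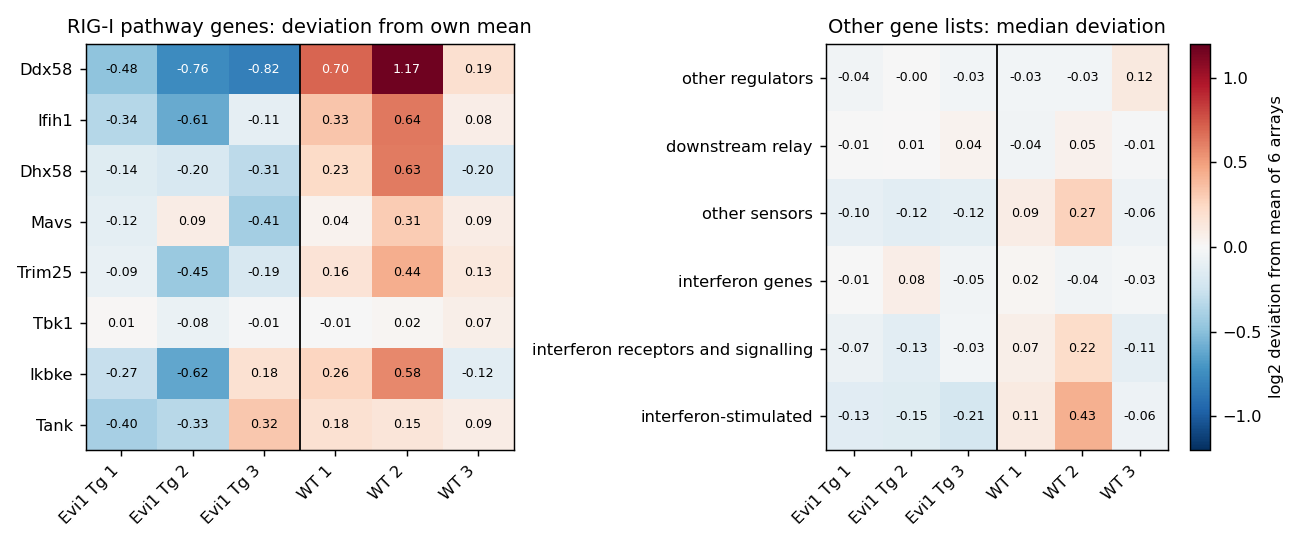
Log2 deviation from the mean over the 6 arrays, for each measured RIG-I pathway gene (left) and as the median of each other gene list (right), with Evi1 Tg arrays left of the line and WT arrays right of it. Ddx58 reaches 1.17 in WT 2, and the interferon-stimulated genes reach 0.43 on the same array.

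Other regulators of RIG-I, MDA5 and MAVS did not share one direction. Of 37 measured genes 20 had a difference below 0 and 17 above, with a median of -0.052. Of these 37 genes 0 passed the limma threshold in either direction. At an unadjusted p under 0.05, 6 were lower and 2 higher, beside 5.8% and 4.5% of all genes. Ddx60, an interferon-induced helicase-like protein reported to assist RIG-I, had 38.9 ± 6.38 in Evi1 Tg and 87.5 ± 30.5 in WT (SD, n = 3 each), which differ by -1.12 on the log2 scale (SE 0.245, limma adjusted p = 0.195). All Evi1 Tg values of Ddx60 lay below background, so this difference is bounded. Of its WT values, 62.2 in WT 3 also lay below background, 78.8 in WT 1 lay at it, and 121 in WT 2 lay above it. Rnf125, a ubiquitin ligase that marks RIG-I and MDA5 for degradation, had 696 ± 102 in Evi1 Tg and 983 ± 99.6 in WT (log2 difference -0.50, SE 0.135, limma adjusted p = 0.256). Smurf1, a ligase known to act on MAVS, and Sec14l1, described as an inhibitor of RIG-I, had log2 differences of -0.52 (SE 0.112) and -0.54 (SE 0.132). The groups of all 4 did not overlap, because genes were named by that rule. Among the 37 genes the groups were separate for 8 lower and 3 higher, beside 7.47% and 7.08% of all genes. The higher ones included Ywhah (log2 difference 0.51, SE 0.142, limma adjusted p = 0.271).

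The relay downstream of MAVS was centred near 0. Of 17 measured genes 7 had a difference below 0 and 10 above, with a median of 0.053, and 0 of the 17 passed. An unadjusted p under 0.05 was found for 1 lower and 0 higher genes of the 17, beside 5.8% and 4.5% of all genes. Separate groups were found for 1 lower and 0 higher, beside 7.47% and 7.08% of all genes. Ikbkg, the regulatory subunit NEMO that links MAVS to NF-kappaB, was this gene in both counts. It had 162, 135 and 149 in Evi1 Tg arrays 1, 2 and 3, against 230.4, 228 and 178 in WT arrays 1, 2 and 3, so the groups did not overlap (log2 difference -0.50, SE 0.129, limma adjusted p = 0.242). Irf3, the factor that TBK1 phosphorylates and that is present without interferon, had 160.4 ± 6.97 in Evi1 Tg and 158 ± 3.85 in WT (log2 difference 0.023, SE 0.0778, limma adjusted p = 0.962). Irf7, its interferon-induced relative, had 88.9, 94.8 and 103 in Evi1 Tg arrays 1, 2 and 3, against 124, 298 and 102 in WT arrays 1, 2 and 3. WT 2 alone was far above the others for Irf7, and WT 3 lay just below Evi1 Tg 3. The log2 difference of Irf7 was -0.71 (SE 0.369, limma adjusted p = 0.588), and it was -0.24 without WT 2.

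The interferons themselves were mostly at background. Of 20 measured interferon genes 14 did not lie above background, and their median difference was 0.010, with 9 below 0 and 11 above. Ifnb1, the interferon that this pathway induces directly, had 30.6 ± 2.74 in Evi1 Tg and 33.6 ± 0.868 in WT (SD, n = 3 each), below background on all 6 arrays. The interferon alpha genes are close copies of each other, and cross-hybridisation between them was not tested. Among 13 measured genes of interferon receptors and their signalling, 10 had a difference below 0 and 3 above, with a median of -0.13, and 0 of the 13 passed. An unadjusted p under 0.05 was found for 3 lower and 1 higher, beside 5.8% and 4.5% of all genes. Separate groups were found for 3 lower and 1 higher, beside 7.47% and 7.08% of all genes. The genes of this set named below were taken because their groups were separate. Usp18, an interferon-induced brake on the receptor, had 68.7, 69.4 and 62.3 in Evi1 Tg arrays 1, 2 and 3, against 152, 309.7 and 103 in WT arrays 1, 2 and 3. All 3 Evi1 Tg arrays were below background and every WT array above it (log2 difference -1.34, SE 0.359, limma adjusted p = 0.256). Irf9, a subunit of the factor ISGF3, and the kinase Jak1 had log2 differences of -0.59 (SE 0.213) and -0.28 (SE 0.112), and that of Irf9 was -0.36 without WT 2. Ifngr1, a chain of the interferon gamma receptor, had a difference above 0, with 3141 ± 139 in Evi1 Tg and 2259 ± 326 in WT (log2 difference 0.48, SE 0.117, limma adjusted p = 0.225).

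**Figure D4:**
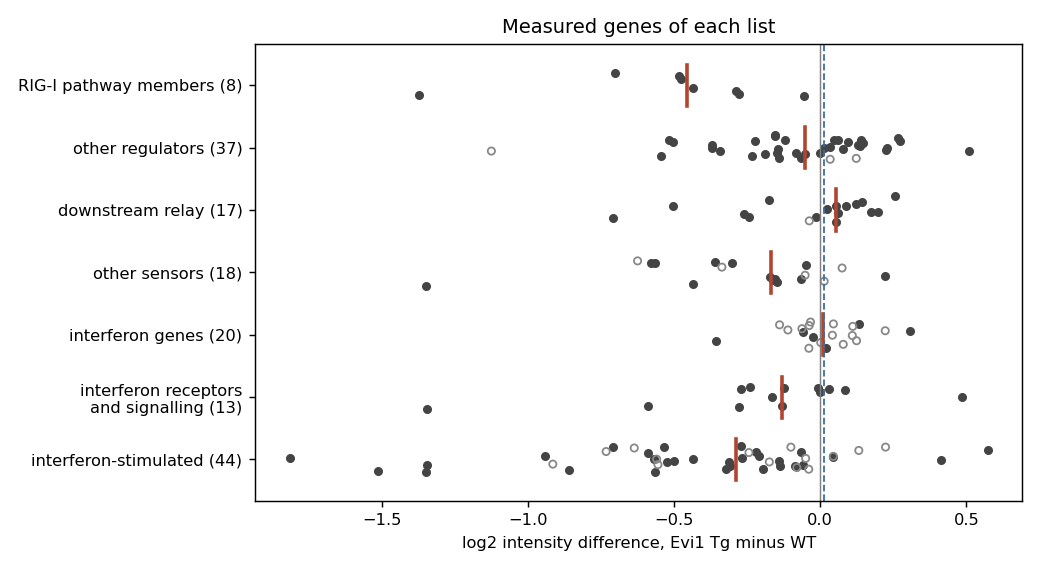
Log2 intensity difference, Evi1 Tg minus WT, of every measured gene in 7 lists, with the number measured in parentheses. Filled points lie above the background of 78.7 and open points do not; red bars are list medians (-0.46 for the RIG-I pathway genes, -0.29 for interferon-stimulated genes) and the dashed line is the median of all genes, 0.012.

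Of the 44 interferon-stimulated genes outside the pathway, 38 had a difference below 0 and 6 above, with a median of -0.29, and 14 of the 44 did not lie above background. Of the 44 genes 0 passed the limma threshold. At an unadjusted p under 0.05, 15 were lower and 0 higher, beside 5.8% and 4.5% of all genes. The groups were separate for 14 lower and 0 higher genes, beside 7.47% and 7.08% of all genes. The genes named below were taken from these 14. Cxcl9, a chemokine that attracts T cells, had 68.5, 81.7 and 70.2 in Evi1 Tg arrays 1, 2 and 3, against 162, 298 and 189 in WT arrays 1, 2 and 3 (log2 difference -1.51, SE 0.220, limma adjusted p = 0.0800). For Cxcl9, Evi1 Tg 1 and 3 lay below the background of 78.7 and Evi1 Tg 2 just above it, which limits this difference. Cxcl9 passed under 5 of 17 alternatives, with adjusted p-values from 0.0304 to 0.482 over all 17, the highest from the test without moderation. Cxcl10, a related chemokine that IRF3 can induce directly, had 126 ± 19.4 in Evi1 Tg and 244 ± 55.3 in WT (log2 difference -0.94, SE 0.179, limma adjusted p = 0.150). Cxcl10 was highest in WT 3, unlike Cxcl9 and Ddx58, which were highest in WT 2. Rsad2, which encodes the antiviral enzyme viperin, had a log2 difference of -0.73 (SE 0.191) and the ubiquitin-like modifier Isg15 one of -0.55 (SE 0.142), both with a mean that did not lie above background.

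Other sensors of foreign nucleic acid also lay mostly below 0, with 15 of 18 measured genes below and 3 above and a median of -0.17. With limma 0 of the 18 passed. At an unadjusted p under 0.05, 4 were lower and 0 higher, beside 5.8% and 4.5% of all genes. The groups were separate for 5 lower and 0 higher genes, beside 7.47% and 7.08% of all genes. The genes named below were taken from these 5. Eif2ak2, which encodes the double-stranded RNA kinase PKR, had 336, 289 and 346 in Evi1 Tg arrays 1, 2 and 3, against 404, 503 and 410.3 in WT arrays 1, 2 and 3. The groups did not overlap (log2 difference -0.44, SE 0.121, limma adjusted p = 0.270). Oas2, an RNA-activated synthetase of 2′-5′ oligoadenylates, had 201, 207 and 134 in Evi1 Tg arrays 1, 2 and 3, against 458, 904 and 221 in WT arrays 1, 2 and 3. WT 3 lay only just above the Evi1 Tg arrays (log2 difference -1.35, SE 0.473, limma adjusted p = 0.387). The Oas2 difference was -0.84 without WT 2, and without WT 3 it passed at -1.86 (limma adjusted p = 0.0417). Unc93b1, which carries nucleic acid receptors of the Toll-like family to endosomes, had a log2 difference of -0.30 (SE 0.0879). Ifi204, a DNA sensor, was below background on all 6 arrays. Usp18, Irf7, Irf9, Eif2ak2 and Oas2 each stand in more than 1 of these lists.

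The genes whose profile over the 6 arrays was most like that of Ddx58 were named as a description, by Pearson correlation of log2 intensity among genes above background. They were Os9 (r = 0.998), a lectin of endoplasmic reticulum quality control, the transcription factor Mitf (0.997), the mTORC1 inhibitor Tsc2 (0.991), Wsb2 (0.991), the respiratory subunit Cox5b (0.989), the interferon-induced gene Ifi27 (0.988), the stress-induced gene Sesn2 (0.988) and Fxyd5 (0.987). All 8 had every Evi1 Tg array below every WT array, as 7.47% of all genes did, and the 6 points of each correlation share that division into groups. Cox5b had 2 probe sets, and its log2 difference was -0.16 for the one kept and -0.0275 for their mean. Ifi27 had 155, 119 and 147 in Evi1 Tg arrays 1, 2 and 3, against 467, 895 and 301 in WT arrays 1, 2 and 3, which differ by -1.84 on the log2 scale (SE 0.362, limma adjusted p = 0.164). The other differences lay between -0.94 for Sesn2 and -0.13 for Fxyd5. Among the pathway genes the correlation with Ddx58 was 0.933 for Trim25, 0.919 for Ifih1, 0.904 for Dhx58, 0.733 for Ikbke, 0.732 for Mavs, 0.492 for Tbk1 and 0.412 for Tank.

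Markers of other cells that the sort could hold were read beside these values. In bulk samples fewer cells of a type and less RNA per cell cannot be told apart. No marker of T and NK cells, B cells or red cell precursors lay above background (0 of 11, 0 of 7 and 0 of 5). Of 10 markers of plasmacytoid dendritic cells, the main interferon producers of blood, 4 lay above background, and the defining markers Siglech and Ccr9 did not. Their summed intensity was 1538 to 1878 in Evi1 Tg and 1584 to 2033 in WT. Of 14 markers of macrophages and conventional dendritic cells 3 lay above background, namely Adgre1, Vcam1 and Cd209a, and the complement genes C1qa, C1qb and C1qc did not. Their summed intensity was 2483 to 3235 in Evi1 Tg and 2942 to 5136 in WT. Of the 14 markers 7 had a difference below 0 and 7 above, with a median of 0.0068, and 0 passed the limma threshold. The groups were separate for 1 lower and 2 higher genes, beside 7.47% and 7.08% of all genes. The groups overlapped for Vcam1, which differed by -1.32 on the log2 scale (SE 0.736, limma adjusted p = 0.616). Adgre1, which encodes F4/80, had 515 in Evi1 Tg and 1119.6 in WT as means, with groups that did not overlap (log2 difference -1.13, SE 0.205, limma adjusted p = 0.139). Of the 18 leukaemia markers 10 had a difference below 0 and 8 above, with a median of -0.022, and 0 passed. At an unadjusted p under 0.05, 4 were lower and 5 higher, beside 5.8% and 4.5% of all genes. The higher ones included Mpo, which encodes myeloperoxidase (2.80, SE 0.507, limma adjusted p = 0.139), and Kit, a growth factor receptor (1.22, SE 0.176, limma adjusted p = 0.0772). In the other direction the lowest difference of the 18 was -0.55. The part of these marker differences in the values of the RIG-I pathway genes was not tested.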

How the data were processed

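Total RNA of sorted leukaemia cells was turned into biotinylated cDNA (GeneChip WT PLUS kit), as the labels state. The authors deposited 1 table of intensity values for 34351 probe sets on 6 arrays, and these values look linear, being all positive and far above the range of logarithms. The sources used here do not say how background, normalization and summarisation were handled. The log2 of each value was used, without a pseudocount or a filter on dim genes. Probe sets with 1 symbol in the platform annotation (23521) were kept, 1814 with several symbols and 9016 with none were left out, and the probe set with the highest mean represented each gene. Each measured pathway gene had 1 probe set.

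The groups were compared in R 4.3.3 with limma 3.58.1 (lmFit, eBayes), p-values were adjusted over 22180 genes by Benjamini-Hochberg, and differences are Evi1 Tg minus WT. The procedure was tested on simulated data with noise drawn independently for each gene and array. Shifts shared by many genes of an array were not simulated. The members, lists, tests and alternatives were chosen with earlier results of these data known. Named genes were the members, up to 4 genes with separate groups and the smallest p per list (2 by p alone where groups were not separate), Ifnb1, Irf3, Irf7 and Mecom, and the 8 genes most correlated with Ddx58. The cell type markers given with values and other genes named beyond this were chosen after their values were seen. The labels do not say whether same-numbered arrays were paired. Correlations of their deviations from the group means were 0.19, -0.18 and 0.061, which cannot settle this with 3 arrays per group. The alternatives were another log scale, quantile and median normalization, a filter on dim genes, array weights, a replicate block, eBayes with trend and robust options, other probe set rules, no moderation, leaving out single arrays, and averaging Evi1 Tg 1 and 2. Figures were drawn with matplotlib 3.10.9.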

Additional observations from a re-analysis of the deposited data

How the results depend on the processing

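All 8 pathway genes kept a difference below 0 under all 17 alternatives, of which averaging Evi1 Tg 1 and 2 was chosen after seeing the data. Their median difference lay between -0.59 and -0.29 when single arrays were left out. Among the 8, 1 gene (Ddx58) passed with array weights (-1.41) and without WT 3, the array with the lowest weight. When single arrays were left out the Ddx58 difference ranged from -1.62 to -1.13 and the number of the 8 that passed from 0 to 1. Over all genes 23 were lower and 2 higher. These counts were 9 and 0 on the log2(value + 16) scale, 82 and 32 with array weights, 9 and 0 with the replicate block, 0 and 0 without moderation, and 6 and 0 with Evi1 Tg 1 and 2 averaged. The higher count was 6 with dim genes left out and 6 with trend and robust settings. Leaving out single arrays gave 2 to 173 lower and 0 to 383 higher genes, and the highest counts were those without WT 3, the setting in which Ddx58 passed. Ddx60, Ikbkg, Oas2, Usp18, Cxcl9, Cxcl10, Ifi27 and Sesn2 also passed without WT 3. With the replicate block Ddx58 had an adjusted p of 0.169, and the block changed no call among the 8. The Irf3 difference turned to -0.0090 without Evi1 Tg 1, in a range up to 0.054 when other single arrays were left out. The cause of these changes was not tested. All Evi1 Tg values of Usp18 and Ddx60 lay below background, as did WT 3 for Ddx60 and Evi1 Tg 1 and 3 for Cxcl9. This limits their differences.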
